A study of Arabidopsis thaliana with 51 samples.

Results

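WRKY22, WRKY53 and WRKY6 are transcription factor genes of the plant WRKY family, and their transcripts were followed in Arabidopsis thaliana seedlings given an elicitor peptide. Members were the probe sets whose gene symbol in the probe annotation table is WRKY22, WRKY53 or WRKY6. There were 3 among 22746 probe sets other than controls, 1 for each gene, and all 3 passed the filter on low values. WRKY22 is locus AT4G01250 (probe set 255568_at), WRKY53 is AT4G23810 (254231_at) and WRKY6 is AT1G62300 (264746_at). Positions are left out, since the sources used here name no genome build for the array.

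WRKY proteins bind a short DNA element, the W-box, which is common in the promoters of plant defence genes. When a pattern receptor at the cell surface binds its ligand, MAP kinase cascades are switched on and many WRKY genes are transcribed within a short time. WRKY22 is placed downstream of such a cascade in the response to bacterial flagellin, WRKY53 is a regulator of leaf senescence and of defence, and WRKY6 acts in senescence, in pathogen responses and in phosphate homeostasis.

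The study hybridised RNA of whole seedlings to 51 Affymetrix ATH1 arrays, 3 biological replicates in each of 17 groups, after treatment with 1 µM of elf18 or Pep2. EFR is the receptor kinase for elf18, a fragment of the bacterial protein EF-Tu, and PEPR1 and PEPR2 are the receptor kinases for Pep2, which plants make themselves. The ein2-1 line, insensitive to ethylene, was sampled untreated (0 h), after elf18 for 2 h or 10 h, and after Pep2 for 2 h. The efr-1 line was taken untreated and after 10 h of elf18. The pepr1-1 pepr2-3 double mutant and the bak1-3 line, which lacks a co-receptor kinase with close relatives that remain, were each taken untreated and after Pep2 for 2 h or 10 h. Wild type (WT) was taken untreated and after either peptide for 2 h or 10 h. The lines are written ein2, efr, pepr1 pepr2 and bak1 from here on. All seedlings had 5 to 6 days on agar and a cycle of 12 h of light and 12 h of dark. Untreated seedlings were sampled only at 0 h, so a response against 0 h holds elapsed time as well as the peptide. Any change in the time of day within that cycle is part of the elapsed time.

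Values are log2 expression as deposited, and the number of arrays limits their precision. Array medians lay between 6.04 and 6.16, the lowest correlation between 2 arrays of one group was 0.992, and no arrays were identical. The lowest value in the table is 2.08. That correlation was taken over all probe sets, with 27.4% of the values within 0.1 of the lowest. WRKY22 lay between 3.15 and 9.36 over the 51 arrays, WRKY53 between 4.63 and 11.74 and WRKY6 between 5.66 and 10.52, so that none of the members reached that lowest value. The mutated gene was checked in the efr line. EFR read 2.16, 2.16 and 2.19 in efr at 10 h of elf18, against 7.16, 6.83 and 6.83 in WT. Untreated, it read 2.29, 2.16 and 2.16 in efr, against 3.39, 3.42 and 2.84 in WT. All efr arrays lay below all WT arrays, near the lowest value of the table. The untreated WT arrays of EFR also lay below the log2 5 of the filter on low values, which EFR passed through treated groups. The EFR response was lower in efr than in WT by a difference of -3.75 (SE 0.316, adjusted p = 1.3e-12 by limma). With the efr arrays near the lowest value, EFR changed there by -0.03, so this difference largely restates its WT rise of 3.72. The untreated difference was -1.01 (SE 0.224, adjusted p = 0.046), and this call was fragile: it was lost without any one of 5 of the 6 arrays, WT 0 h replicates 1 and 2 and efr 0 h replicates 1, 2 and 3, with values from -1.20 to -0.92 and adjusted p from 0.013 to 0.34 over all 6. The genes mutated in the other lines could not be checked in this way, as the annotation table used here has no entry under their symbols.

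A transcript is said to have risen or fallen where limma's adjusted p is under 0.05 and the difference is at least 2-fold. Differences are log2 values with their SE. Shares of all transcripts are given at this threshold. They are no measure for members given at an unadjusted p or under 2-fold, for which no such share is given beside them unless stated. All 3 WRKY transcripts rose in WT with both peptides at both times. The share of the 14568 tested transcripts that rose was 8.16% (2 h) and 13.4% (10 h) with elf18, and 11.0% (2 h) and 8.57% (10 h) with Pep2. The median change of the 3 members at these times was 2.45, 4.14, 4.2 and 2.05, against -0.045, -0.054, -0.105 and 0.0049 over all transcripts tested. Whole seedlings were used, and more RNA per cell and more cells that hold the transcript cannot be told apart.

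WRKY22 read 4.47, 3.58 and 3.61 in untreated WT. With elf18 it read 9.20, 8.68 and 9.36 at 2 h, and 8.21, 7.90 and 8.60 at 10 h. With Pep2 it read 5.97, 7.13 and 6.47 at 2 h, and 5.26, 4.84 and 5.02 at 10 h. Every treated array was above every untreated one, and the elf18 arrays were all above the Pep2 arrays. WRKY22 rose by 5.19 (SE 0.349, adjusted p = 1.9e-15) at 2 h and 4.35 (adjusted p = 8.7e-14) at 10 h of elf18, which are 36.6-fold and 20.4-fold. The untreated WT arrays of WRKY22 all lay below the log2 5 of the filter on low values, which the gene passed through treated groups. These folds are thus set against a baseline under that minimum. Its untreated arrays in ein2, efr and bak1 lay below that minimum too. With Pep2 in WT, WRKY22 rose by 2.64 (6.22-fold, adjusted p = 3.4e-08) at 2 h and 1.15 (2.22-fold, adjusted p = 0.0054) at 10 h.

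WRKY53 read 6.86, 6.25 and 5.59 in untreated WT, a wider spread than in any treated WT group. With elf18 it read 8.96, 8.56 and 8.54 at 2 h, and 10.54, 10.15 and 10.43 at 10 h. With Pep2 it read 11.44, 11.24 and 11.42 at 2 h, and 8.66, 8.49 and 8.65 at 10 h. All 4 treated groups lay above 0 h, with 2 h of Pep2 the highest and 10 h of elf18 the next. WRKY53 rose by 2.45 (SE 0.418, adjusted p = 6.6e-06) at 2 h and 4.14 (adjusted p = 4.1e-11) at 10 h of elf18. The rises with Pep2 were 5.13 at 2 h (35.1-fold, adjusted p = 2.2e-13) and 2.37 at 10 h (5.16-fold, adjusted p = 9.7e-06).

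WRKY6 read 5.66, 5.86 and 6.06 in untreated WT. With elf18 it read 7.92, 7.87 and 8.39 at 2 h, and 9.43, 9.24 and 9.53 at 10 h. With Pep2 it read 9.81, 9.94 and 10.43 at 2 h, and 7.77, 8.18 and 7.78 at 10 h. Its WT group means had the same order as those of WRKY53. WRKY6 rose by 2.20 (SE 0.172, 4.6-fold, adjusted p = 1.3e-13) at 2 h and 3.54 (11.7-fold, adjusted p = 4.3e-20) at 10 h of elf18. With Pep2 the rises were 4.20 (18.4-fold, adjusted p = 6.2e-22) and 2.05 (4.14-fold, adjusted p = 8e-13).

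**Figure D1:**
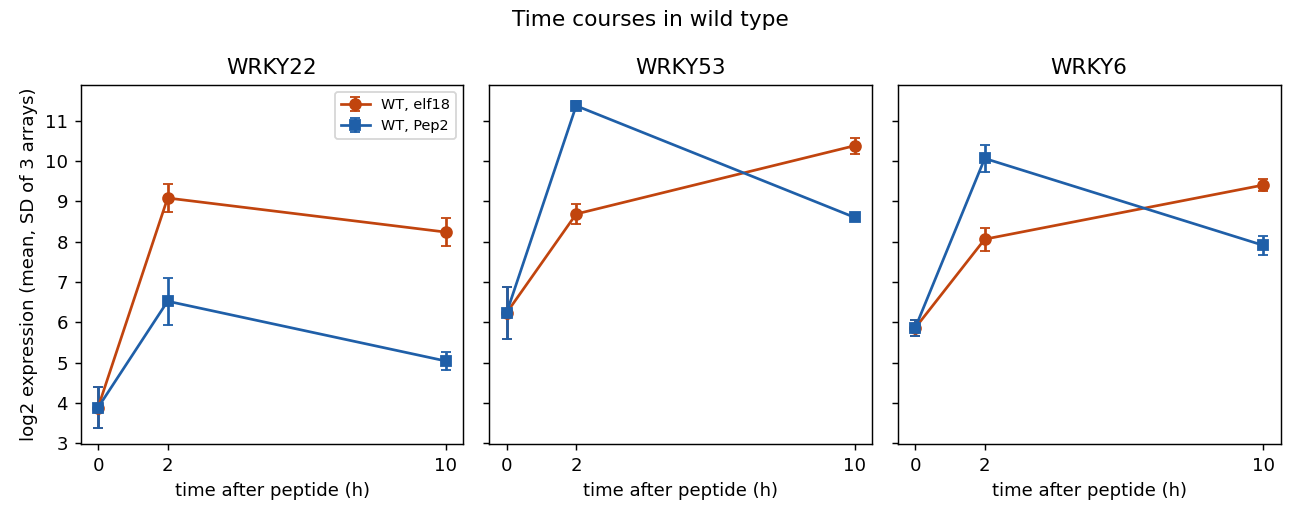
Log2 expression of WRKY22, WRKY53 and WRKY6 in WT against hours after peptide, for elf18 (orange circles) and Pep2 (blue squares); points are means and bars the SD of 3 arrays, and the 0 h arrays are shared. For WRKY22 the elf18 curve runs above the Pep2 curve at both times, whereas for WRKY53 and WRKY6 Pep2 is above elf18 at 2 h and below it at 10 h.

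The peptides were compared in WT at matched times. At 2 h the members split. WRKY22 was higher with elf18 than with Pep2, by 2.56 (SE 0.349, 5.89-fold, adjusted p = 2.7e-07), with a mean of 9.08 ± 0.35 against 6.52 ± 0.58 (SD, n = 3 each). WRKY53 was lower with elf18 than with Pep2, at 8.68 ± 0.24 against 11.37 ± 0.11, a difference of -2.68 (SE 0.418, 6.42-fold, adjusted p = 3.6e-06). WRKY6 was lower with elf18 as well, at 8.06 ± 0.29 against 10.06 ± 0.32, a difference of -2.00 (SE 0.172, adjusted p = 7.6e-12). Thus 1 of the 3 was higher with elf18, as were 3.81% of all transcripts tested, and 2 were lower, as were 4.10%. For none of the members did the arrays of the 2 peptides overlap. The share of all transcripts without overlap was not counted, for this or any other comparison of arrays given here.

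At 10 h all 3 members were higher with elf18 than with Pep2, as were 7.98% of all transcripts tested. WRKY22 stood at 8.24 ± 0.35 with elf18 and 5.04 ± 0.21 with Pep2, a difference of 3.20 (SE 0.349, 9.16-fold, adjusted p = 8e-10). WRKY53 stood at 10.38 ± 0.20 with elf18 and 8.60 ± 0.10 with Pep2, a difference of 1.77 (SE 0.418, 3.42-fold, adjusted p = 0.00054). WRKY6 stood at 9.40 ± 0.14 with elf18 and 7.91 ± 0.23 with Pep2, a difference of 1.49 (SE 0.172, 2.81-fold, adjusted p = 2.6e-09). WRKY53 and WRKY6 thus changed sides between 2 h and 10 h, and WRKY22 did not.

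The same comparison could be made in ein2 at 2 h, and the members split there in the same way. WRKY22 was higher with elf18 by 2.68 (adjusted p = 9.9e-08), WRKY53 was lower by a difference of -2.49 (adjusted p = 1.1e-05) and WRKY6 lower by -1.67 (adjusted p = 5.3e-10). Over all transcripts tested, 4.48% were higher and 4.37% lower with elf18 in ein2. The peptide difference in ein2 minus that in WT was 0.12 for WRKY22 (95% interval -0.88 to 1.12), 0.19 for WRKY53 (-1.01 to 1.39) and 0.33 for WRKY6 (-0.16 to 0.82). None of the 3 passed the threshold or had an unadjusted p under 0.05 by limma, and 0.604% of all transcripts passed the threshold.

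**Figure D2:**
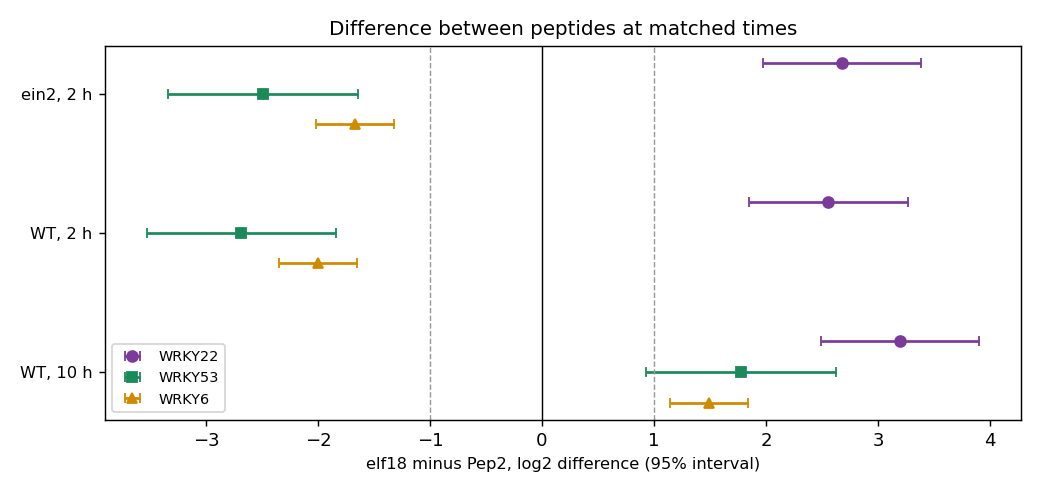
Difference elf18 minus Pep2 in log2 expression for each member (horizontal axis, with 95% interval), in ein2 at 2 h and in WT at 2 h and 10 h; dashed lines mark a 2-fold difference. WRKY22 lies to the right in all 3 comparisons, from 2.56 to 3.20, and WRKY53 and WRKY6 lie to the left at 2 h and to the right at 10 h.

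Persistence was measured as the change between 2 h and 10 h. With elf18 in WT, WRKY53 rose further by 1.69 (SE 0.418, adjusted p = 0.001) and WRKY6 by 1.34 (SE 0.172, adjusted p = 3.5e-08), 2 of the 3 members where 6.57% of all transcripts rose. WRKY22 differed by -0.85 (SE 0.349, adjusted p = 0.044), short of 2-fold, and its arrays at 10 h and 2 h did not overlap. Without WT elf18 10 h replicate 3 this difference was -1.03 and without WT elf18 2 h replicate 2 it was -1.04, both past the threshold (adjusted p from 0.027 to 0.17 over the arrays left out in turn).

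With Pep2 in WT all 3 members fell between 2 h and 10 h, where 10.4% of all transcripts fell. WRKY22 fell by 1.48 (SE 0.349, 2.8-fold, adjusted p = 0.00043), WRKY53 fell by 2.77 (SE 0.418, 6.8-fold, adjusted p = 5.6e-07) and WRKY6 fell by 2.15 (SE 0.172, 4.44-fold, adjusted p = 2e-13). All 3 were still above 0 h at that time, as given above. In pepr1 pepr2, which lacks the Pep2 receptors, WRKY53 and WRKY6 had also risen above 0 h by 10 h, by 1.12 each. No member's response differed there from that of WT past the threshold, as given below (-0.76 for WRKY22, -1.25 for WRKY53 and -0.93 for WRKY6). The change over time was also compared between the peptides. It was higher with elf18 than with Pep2 by 4.46 (SE 0.592, adjusted p = 9.4e-08) for WRKY53 and by 3.49 (SE 0.243, adjusted p = 2.2e-14) for WRKY6, 2 of the 3 members where 10.5% of all transcripts were higher. For WRKY22 the difference was 0.64 (95% interval -0.36 to 1.64, adjusted p = 0.31), which did not pass the test.

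The responses to elf18 in ein2 followed the same course. WRKY22 read 3.61, 4.62 and 4.57 at 0 h, 9.08, 8.82 and 9.30 at 2 h, and 8.05, 8.42 and 8.20 at 10 h of elf18. WRKY53 read 5.60, 7.33 and 4.63 at 0 h, 9.00, 8.57 and 8.87 at 2 h, and 10.89, 10.19 and 10.24 at 10 h. WRKY6 read 6.66, 6.41 and 6.61 at 0 h, 8.18, 8.09 and 8.63 at 2 h, and 9.77, 9.59 and 9.52 at 10 h. All treated arrays lay above the untreated ones for each member, and the untreated ein2 arrays of WRKY53 spread over more than any other group (SD 1.37). After 2 h of Pep2, ein2 read 6.14, 6.81 and 6.20 for WRKY22, 11.22, 11.50 and 11.19 for WRKY53, and 9.97, 9.81 and 10.14 for WRKY6.

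All 3 members rose in ein2 with elf18 (2 h, then 10 h) and with Pep2 (2 h), where 8.83%, 12.5% and 10.6% of all transcripts rose. WRKY22 rose by 4.80, 3.95 and 2.12 in these comparisons, WRKY53 by 2.96, 4.59 and 5.45, and WRKY6 by 1.74, 3.07 and 3.41. The largest adjusted p among these 9 values was 2.4e-06, for WRKY22 with Pep2. Between 2 h and 10 h of elf18 in ein2, WRKY53 rose by 1.62 (adjusted p = 0.0018) and WRKY6 by 1.33 (adjusted p = 6.2e-08), where 5.21% of all transcripts rose. WRKY22 differed by -0.84 (adjusted p = 0.05), short of 2-fold.

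No member's response in ein2 differed from that in WT past the threshold, where 1.37% of all transcripts differed at 2 h of elf18, 4.52% at 10 h of elf18 and 2.62% with Pep2 at 2 h. For WRKY22 the ein2 response minus the WT response was -0.40 (95% interval -1.40 to 0.60), -0.39 (-1.39 to 0.60) and -0.52 (-1.52 to 0.48) in that order. For WRKY53 it was 0.51 (-0.69 to 1.71), 0.45 (-0.75 to 1.64) and 0.32 (-0.88 to 1.52). For WRKY6 it was -0.46 (-0.95 to 0.03), -0.48 (-0.97 to 0.01) and -0.79 (-1.28 to -0.30). By limma the last of these had an adjusted p of 0.041 without reaching 2-fold, and it was the one member at an unadjusted p under 0.05 in the Pep2 comparison, against 0 in each elf18 comparison. Without ein2 0 h replicate 3, the lowest of the WRKY53 arrays, the WRKY53 values were -0.10, -0.17 and -0.29. The change between 2 h and 10 h of elf18 differed between ein2 and WT by 0.00 for WRKY22, -0.07 for WRKY53 and -0.01 for WRKY6, with intervals of -0.996 to 1.002, -1.26 to 1.13 and -0.51 to 0.48. None of these 3 passed at an unadjusted p under 0.05, and 1.76% of all transcripts were called.

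Untreated, no member differed from WT past the threshold in any of the 4 lines, where 4.53% of all transcripts differed in ein2, 0.0824% in efr, 0.0824% in pepr1 pepr2 and 0.0686% in bak1. WRKY6 in ein2 was the one case with an adjusted p under 0.05 by limma, at 6.66, 6.41 and 6.61 in ein2 against 5.66, 5.86 and 6.06 in WT. The 2 groups did not overlap, and the difference of 0.70 (SE 0.172, adjusted p = 0.0035) was short of 2-fold. At an unadjusted p under 0.05 limma gave WRKY6 in ein2, WRKY53 in efr (-0.93) and in bak1 (-0.94), and no member in pepr1 pepr2. Both WRKY53 values were nearer to 2-fold than that of WRKY6, with adjusted p of 0.39 in efr and 0.58 in bak1. The untreated WRKY53 arrays of bak1 and WT did not overlap either.

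The efr line asks whether the rise at 10 h of elf18 needs the elf18 receptor. WRKY22 read 4.32, 4.66 and 4.18 in treated efr, against 4.16, 3.45 and 3.27 in untreated efr. WRKY53 read 4.93, 6.16 and 5.05 in treated efr, against 4.66, 6.30 and 4.94. WRKY6 read 6.91, 7.04 and 6.86 in treated efr, against 6.11, 6.26 and 6.05. The WRKY53 arrays overlapped. The lowest treated array of WRKY22 (4.18) was only just above its highest untreated one (4.16). Treated and untreated, all efr arrays of WRKY22 lay below the log2 5 of the filter on low values. For WRKY6 these arrays lay further apart (6.86 against 6.26).

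No member passed the threshold in efr, where 15.2% of all transcripts did. The changes were 0.76 for WRKY22 (adjusted p = 0.069), 0.08 for WRKY53 (adjusted p = 0.9) and 0.80 for WRKY6 (SE 0.172, adjusted p = 0.00017, under 2-fold), and 2 of the 3 had an unadjusted p under 0.05 by limma. With no fold minimum, 7226 of the 14568 transcripts tested passed at an adjusted p under 0.05 in this comparison. Without efr 0 h replicate 1 the WRKY22 change was 1.03 and passed (adjusted p from 0.027 to 0.23 over the arrays left out in turn). In all 3 members the response was lower in efr than in WT, where 12.6% of all transcripts were lower. The efr response minus the WT response was -3.59 for WRKY22 (SE 0.493, adjusted p = 9.6e-08), -4.07 for WRKY53 (SE 0.592, adjusted p = 3e-07) and -2.74 for WRKY6 (SE 0.243, adjusted p = 4.6e-12).

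The pepr1 pepr2 line asks the same of Pep2, at both times. At 0 h, 2 h and 10 h of Pep2, WRKY22 read 4.10, 5.42 and 3.31, then 5.02, 4.89 and 4.93, then 4.69, 4.76 and 4.53. Of these arrays only those at 5.42 and 5.02 reached the log2 5 of the filter on low values. WRKY53 read 5.98, 6.40 and 4.93, then 5.39, 6.12 and 5.23, then 7.02, 7.24 and 6.42. WRKY6 read 6.12, 6.06 and 5.82, then 6.70, 6.59 and 6.86, then 7.34, 7.32 and 6.69. WRKY22 was within its untreated range at both times. WRKY53 was within its own at 2 h and only just above it at 10 h (6.42 against 6.40). WRKY6 was above its own at both times.

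At 2 h of Pep2 no member passed the threshold in pepr1 pepr2, where 3.53% of all transcripts did. The changes were 0.67 for WRKY22, -0.19 for WRKY53 and 0.72 for WRKY6, of which the last had an adjusted p of 0.002 by limma under 2-fold and was the one member at an unadjusted p under 0.05. Without pepr1 pepr2 0 h replicate 2, the highest untreated array, the WRKY22 change was 1.24 and passed (adjusted p from 0.0084 to 0.77 over the arrays left out). All 3 responses were lower in pepr1 pepr2 than in WT, where 11.8% of all transcripts were lower. The pepr1 pepr2 response minus the WT response was -1.96 for WRKY22 (SE 0.493, adjusted p = 0.0012), -5.32 for WRKY53 (SE 0.592, adjusted p = 1.5e-09) and -3.48 for WRKY6 (SE 0.243, adjusted p = 1.2e-14).

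By 10 h of Pep2, WRKY53 and WRKY6 had risen in pepr1 pepr2 by 1.12 each (SE 0.418 and adjusted p = 0.024 for WRKY53, SE 0.172 and adjusted p = 1e-06 for WRKY6), where 7.21% of all transcripts rose. WRKY22 differed by 0.39 (adjusted p = 0.37). The WRKY53 call rested on single arrays: it was lost at 0.70 without pepr1 pepr2 0 h replicate 3, at 1.06 without pepr1 pepr2 Pep2 10 h replicate 1 and at 0.95 without replicate 2 of that group (adjusted p from 0.01 to 0.21 over the arrays left out). The pepr1 pepr2 response minus the WT response was -0.76 for WRKY22 (95% interval -1.76 to 0.23), -1.25 for WRKY53 (-2.44 to -0.05) and -0.93 for WRKY6 (-1.43 to -0.44). None of the 3 passed by limma, where 8.61% of all transcripts did, although WRKY53 and WRKY6 had an unadjusted p under 0.05 and WRKY6 an adjusted p of 0.0043 under 2-fold.

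The calls at 10 h in pepr1 pepr2 stood close to the threshold. WRKY6 passed without any one of 5 arrays, which were WT 0 h replicate 3, WT Pep2 10 h replicate 1, pepr1 pepr2 0 h replicate 3 and pepr1 pepr2 Pep2 10 h replicates 1 and 2, with values from -1.05 to -1.01. Without pepr1 pepr2 0 h replicate 3, WRKY22 and WRKY53 passed as well, at -1.25 and -1.67 (over the arrays left out, adjusted p from 0.0025 to 0.031 for WRKY6, from 0.05 to 0.82 for WRKY22 and from 0.038 to 0.32 for WRKY53). Between 2 h and 10 h of Pep2 in pepr1 pepr2, WRKY53 rose by 1.31 (SE 0.418, adjusted p = 0.013), the one member among 4.52% of all transcripts that rose. This call was lost at 1.14 without pepr1 pepr2 Pep2 2 h replicate 3 and likewise without pepr1 pepr2 Pep2 10 h replicate 2 (adjusted p from 0.0082 to 0.065). WRKY22 differed by -0.28 and WRKY6 by 0.40.

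That change over time differed from WT, where the members fell. It was higher in pepr1 pepr2 than in WT by 4.08 for WRKY53 (SE 0.592, adjusted p = 8.2e-07) and by 2.55 for WRKY6 (SE 0.243, adjusted p = 1.2e-10), 2 of the 3 members where 8.53% of all transcripts were higher. For WRKY22 the value was 1.20 (SE 0.493, adjusted p = 0.055), which did not pass. Without WT Pep2 2 h replicate 1 it was 1.48 and passed (adjusted p from 0.024 to 0.18 over the arrays left out).

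In bak1 the responses to Pep2 of WRKY53 and WRKY6 were higher than those of WT at 10 h, and no member's response passed as different at 2 h. At 0 h, 2 h and 10 h of Pep2, WRKY22 read 4.03, 3.15 and 3.21, then 6.15, 6.25 and 7.04, then 5.97, 5.83 and 5.59. WRKY53 read 5.48, 5.14 and 5.25, then 11.45, 11.49 and 11.74, then 9.34, 9.17 and 9.49. WRKY6 read 5.68, 6.02 and 5.71, then 9.97, 10.30 and 10.52, then 9.89, 9.64 and 9.82. Treated arrays lay above untreated ones in every case, and the WRKY6 arrays at 10 h were all below those at 2 h by a narrow margin.

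All 3 members rose in bak1 at both times, where 10.6% of all transcripts rose at 2 h and 15.1% at 10 h of Pep2. WRKY22 rose by 3.02 and 2.34, WRKY53 by 6.27 and 4.04, and WRKY6 by 4.46 and 3.98 at 2 h and 10 h (adjusted p at most 2.2e-07, for WRKY22 at 10 h). At 2 h no response passed as different from WT. The bak1 response minus the WT response was 0.38 for WRKY22 (95% interval -0.62 to 1.38), 1.14 for WRKY53 (-0.06 to 2.33) and 0.26 for WRKY6 (-0.24 to 0.75). None was called by limma or had an unadjusted p under 0.05, and 0.645% of all transcripts were called.

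At 10 h of Pep2 the response was higher in bak1 than in WT by 1.93 for WRKY6 (SE 0.243, 3.8-fold, adjusted p = 6.2e-08) and by 1.68 for WRKY53 (SE 0.592, 3.2-fold, adjusted p = 0.024). These were 2 of the 3 members, where 6.68% of all transcripts were higher. WRKY6 averaged 9.78 ± 0.13 in treated bak1 and 7.91 ± 0.23 in treated WT (SD, n = 3 each), with untreated means of 5.81 in bak1 and 5.86 in WT. WRKY53 averaged 9.33 ± 0.16 in treated bak1 and 8.60 ± 0.10 in treated WT, and its untreated mean was 5.29 in bak1 against 6.23 in WT, so that both time points enter its difference. The WRKY53 call was lost without WT 0 h replicate 1, the highest untreated WT array, at 1.36 (adjusted p from 0.0099 to 0.087 over the arrays left out). For WRKY22 the value was 1.18 (SE 0.493, adjusted p = 0.057). It passed without WT 0 h replicate 2 (1.33), WT 0 h replicate 3 (1.32) or bak1 0 h replicate 1 (1.46), with adjusted p from 0.025 to 0.18 over the arrays left out.

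Between 2 h and 10 h of Pep2 in bak1, WRKY53 fell by 2.22 (SE 0.418, adjusted p = 1.9e-05), the one member where 11.2% of all transcripts fell. WRKY22 differed by -0.68 (adjusted p = 0.09) and WRKY6 by -0.48 (adjusted p = 0.015, under 2-fold). Compared with the fall in WT, WRKY6 was higher in bak1 by 1.67 (SE 0.243, adjusted p = 9.2e-07), where 6.75% of all transcripts were higher. For WRKY53 the difference was 0.54 (95% interval -0.66 to 1.74) and for WRKY22 0.80 (-0.20 to 1.80), and neither passed the test.

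**Figure D3:**
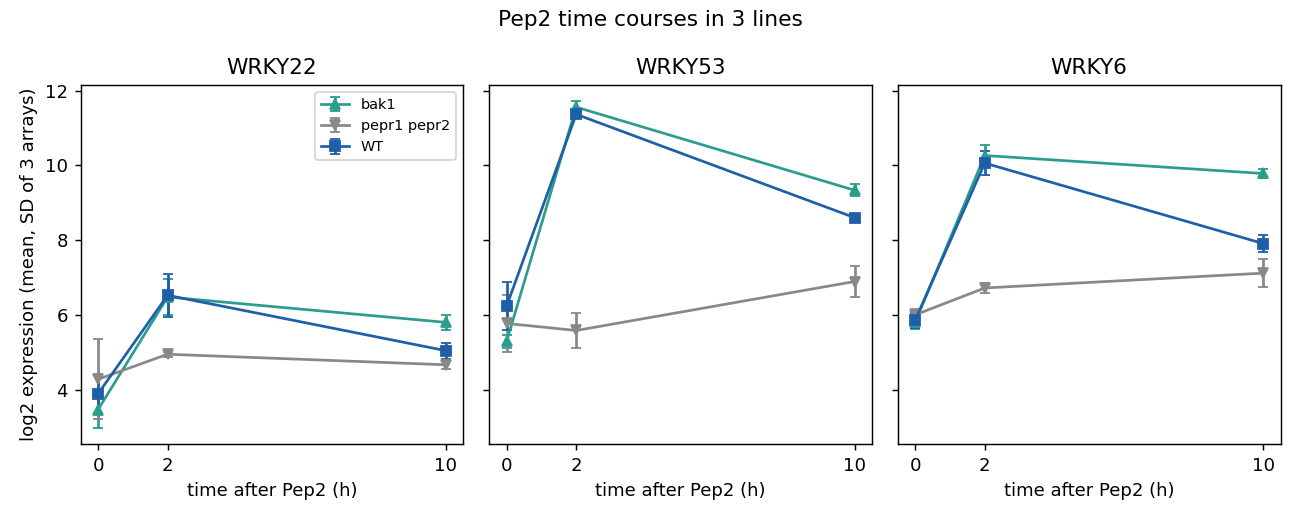
Log2 expression of the members against hours after Pep2 in bak1 (green triangles), pepr1 pepr2 (grey triangles) and WT (blue squares), as means with the SD of 3 arrays. The bak1 and WT levels at 2 h are 11.56 and 11.37 for WRKY53 and 10.26 and 10.06 for WRKY6, WRKY6 is at 9.78 in bak1 against 7.91 in WT at 10 h, and the highest pepr1 pepr2 mean is 7.12, for WRKY6 at 10 h.

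**Figure D4:**
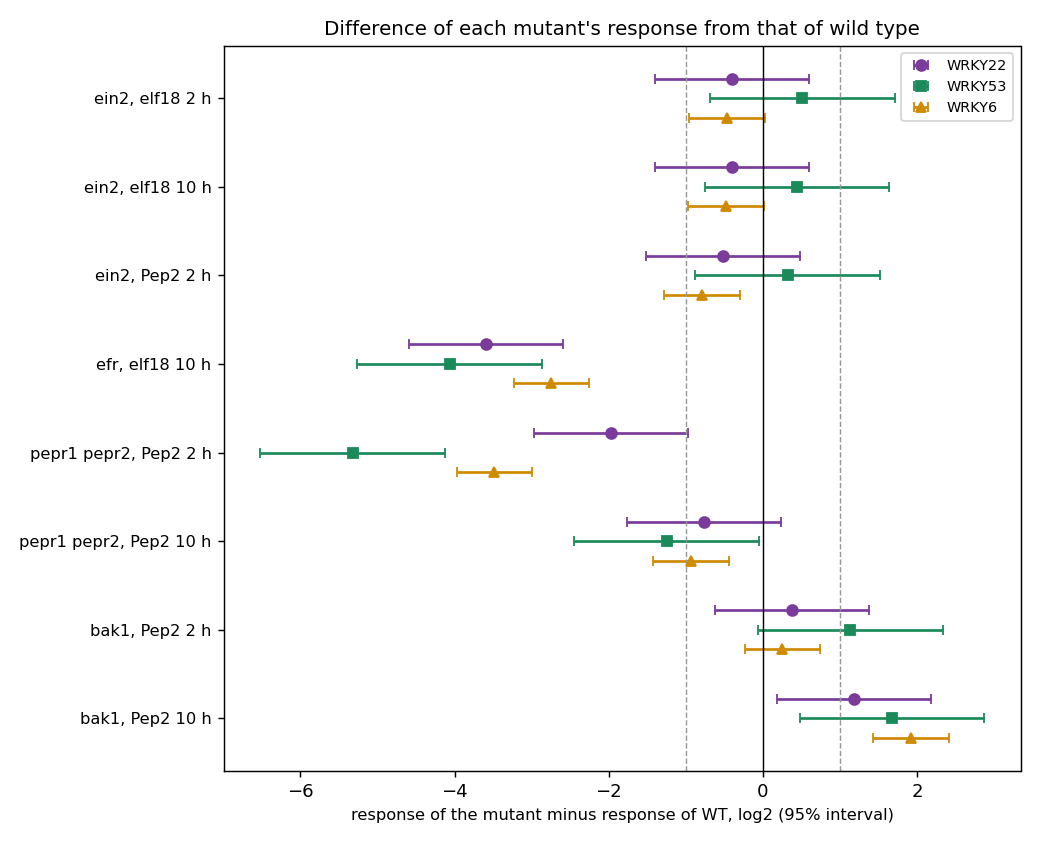
Response of each mutant minus the WT response to the same peptide at the same time (log2, horizontal axis, with 95% interval) for the 3 members; dashed lines mark a 2-fold difference. efr at 10 h and pepr1 pepr2 at 2 h lie between -5.32 and -1.96, ein2 between -0.79 and 0.51, and bak1 at 10 h between 1.18 and 1.93.

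The levels of each gene were ordered over the 17 groups. WRKY22 spanned 5.62 between its group means, with the 4 elf18 groups of WT and ein2 at the top (9.08 to 8.22), then the Pep2 groups of WT, bak1 and ein2 at 2 h (6.52 to 6.38), bak1 at 10 h (5.80) and WT at 10 h of Pep2 (5.04). The 8 groups below those were untreated or lacked the receptor. Of the 16 neighbouring pairs in this order 11 overlapped, among them WT and ein2 at each elf18 time.

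WRKY53 spanned 6.27, with 2 h of Pep2 in bak1, WT and ein2 at the top (11.56 to 11.31). Next came 10 h of elf18 in ein2 and WT (10.44 and 10.38), bak1 at 10 h of Pep2 (9.33), 2 h of elf18 in ein2 and WT (8.81 and 8.68) and WT at 10 h of Pep2 (8.60). Neighbours overlapped in 11 of 16 pairs, and 2 h of elf18 and 10 h of Pep2 in WT did not differ beyond their spread. WRKY6 spanned 4.46 and began with the same 3 groups (10.26 to 9.97). They were followed by bak1 at 10 h of Pep2 (9.78), 10 h of elf18 in ein2 and WT (9.63 and 9.40), 2 h of elf18 in ein2 and WT (8.30 and 8.06) and WT at 10 h of Pep2 (7.91). Of its neighbouring pairs 12 of 16 overlapped. The 3 widest gaps between neighbouring means of WRKY53 were 1.71 below WT at 10 h of Pep2, 1.04 below WT at 10 h of elf18 and 0.87 below ein2 at 2 h of Pep2. The widest of WRKY6 were 1.10 below WT at 10 h of elf18 and 0.79 below WT at 10 h of Pep2.

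**Figure D5:**
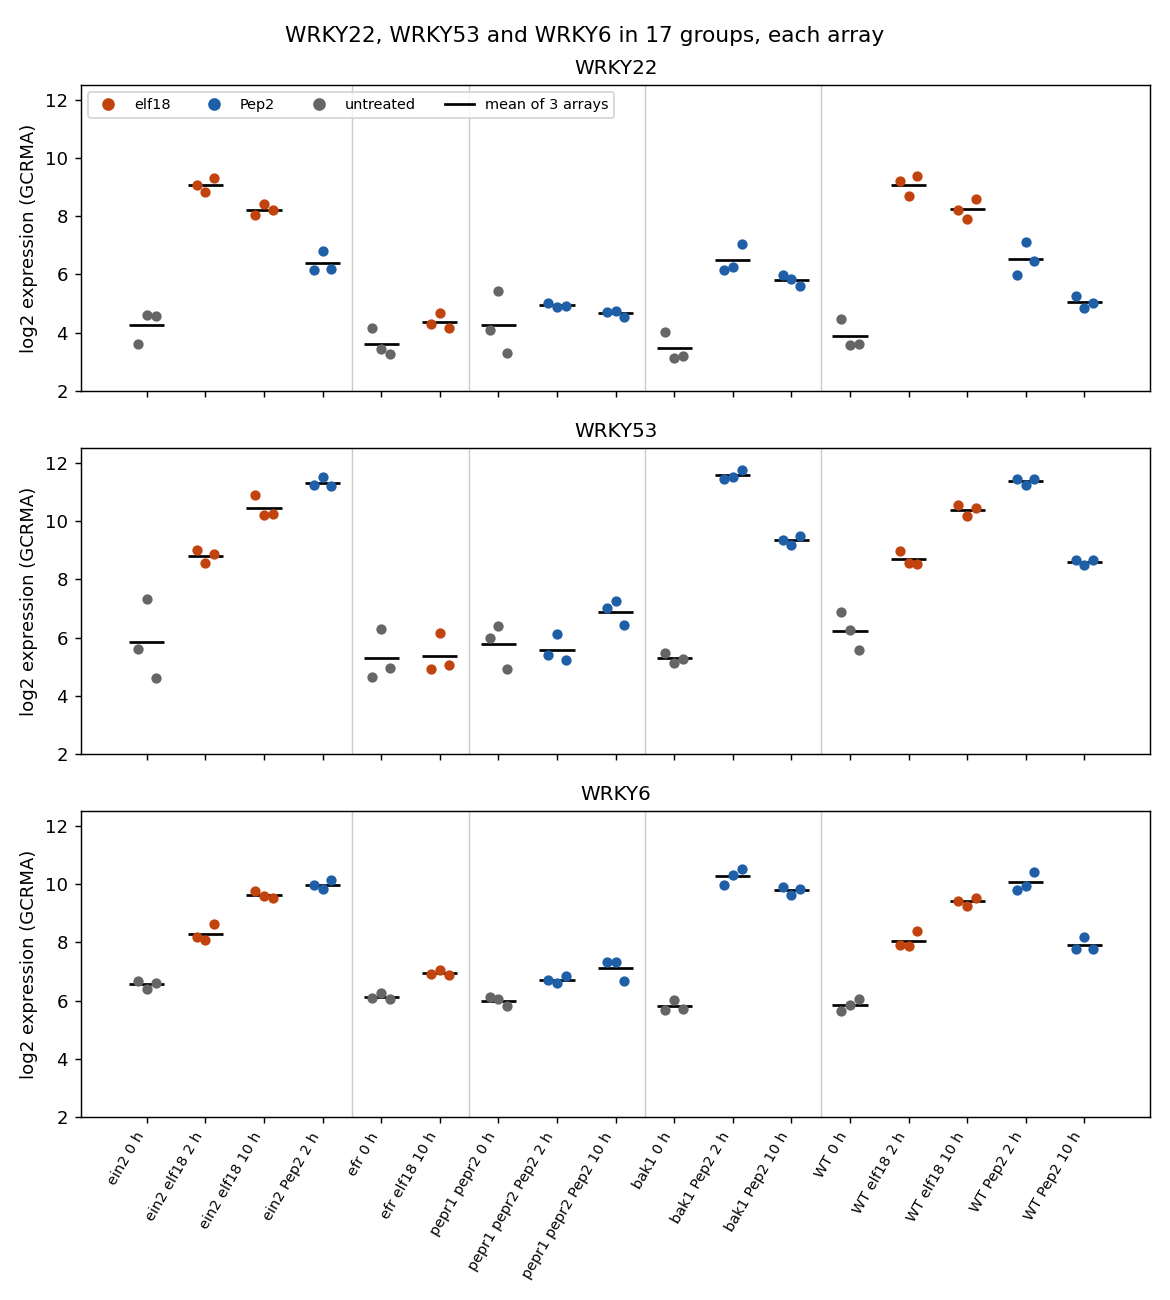
Log2 expression of WRKY22, WRKY53 and WRKY6 on each of the 51 arrays, by line and treatment (elf18 orange, Pep2 blue, untreated grey), with the mean of 3 arrays as a line. The WRKY22 panel has its highest arrays in the elf18 groups (up to 9.36), the WRKY53 and WRKY6 panels in the groups at 2 h of Pep2 (up to 11.74 and 10.52), and the treated efr and pepr1 pepr2 arrays reach at most 7.34.

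Likeness between transcripts was measured as Pearson's r over the 17 group means, as a description of groups that share peptides, times and untreated arrays. WRKY53 and WRKY6 had r = 0.964, WRKY22 and WRKY53 0.721, and WRKY22 and WRKY6 0.697. Of 7825 other named transcripts tested, 19 were closer to WRKY53 than WRKY6 was, and 632 were closer to WRKY22 than WRKY53 was. Within groups, the deviations of single arrays from their group mean correlated at 0.34 between WRKY22 and WRKY53, at 0.13 between WRKY22 and WRKY6 and at 0.06 between WRKY53 and WRKY6, over 51 arrays.

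Nearest to WRKY22 were PUB22, a U-box ubiquitin ligase gene (r = 0.971), AT5G03700, which encodes a lectin-domain protein (0.969), and OS9, which encodes a lectin of endoplasmic reticulum quality control (0.969). PUB22 was higher with elf18 than with Pep2 in WT by 2.04 (SE 0.161, adjusted p = 9.5e-13) at 2 h and by 3.87 (adjusted p = 3.6e-21) at 10 h. AT5G03700 was higher with elf18 by 1.36 (adjusted p = 9.7e-09) and 2.30 (adjusted p = 5.5e-15), and OS9 differed by 0.52 and 0.84, under 2-fold. All 3 stood on the elf18 side at both times, as WRKY22 did.

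Nearest to WRKY53 were AT5G52750, which encodes a heavy-metal-associated domain protein (r = 0.981), AT1G78410, which encodes a VQ-motif protein (0.976), and AT3G28850, a glutaredoxin family gene (0.976). At 2 h AT5G52750 was lower with elf18 than with Pep2 by a difference of -2.59 (adjusted p = 3.5e-10), AT1G78410 by -3.13 (adjusted p = 5.8e-11) and AT3G28850 by -1.72 (adjusted p = 3.2e-14). At 10 h the same 3 were higher with elf18, by 1.92, 1.56 and 1.01, of which the last fell short of 2-fold (0.95) with 1 array left out. Nearest to WRKY6 were AT3G25610 (r = 0.989) and ACA.l (0.986), which both encode phospholipid-flipping P-type ATPases, and AT2G46620, which encodes an AAA-type ATPase family protein (0.978). AT3G25610 and ACA.l were lower with elf18 at 2 h, by -1.70 and -2.53, and higher at 10 h, by 1.26 and 1.28. AT2G46620 differed by -0.70 and 0.73, under 2-fold. These neighbours were picked for likeness to the members over the same groups, so their values describe that likeness and are no separate evidence of it.

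The annotation table names 3 other WRKY genes among the probe sets paired with 1 gene. Those paired with several genes (503) or with none (8730) were left out, so this count may fall short of the family on the array. WRKY47 rose in WT at 2 h of elf18 by 1.97 (SE 0.176, adjusted p = 5.5e-12), at 10 h of elf18 by 2.35 and at 2 h of Pep2 by 2.13, and differed by 0.93 at 10 h of Pep2, under 2-fold. Without WT 0 h replicate 2 that value was 1.06 and passed. At 2 h WRKY47 stood at 8.23 ± 0.05 with elf18 and 8.39 ± 0.25 with Pep2, a difference of -0.16 (adjusted p = 0.57), and at 10 h it was higher with elf18 by 1.42 (adjusted p = 1.3e-08). Its response was lower in efr by a difference of -1.49 at 10 h of elf18 and in pepr1 pepr2 by -1.79 at 2 h of Pep2. WRKY20 lay between 6.496 and 7.553 on all arrays and changed by less than 2-fold in each of the 4 WT comparisons. WRKY42 lay between 2.08 and 2.11 on all arrays, next to the table's lowest value, and was not tested.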

How the data were processed

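The deposited values are on a log2 scale, from GCRMA as the submitters' processing notes name it; version, filter and detection calls are not given in the sources used here. A size of change near the lowest value depends on that background correction.

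The filter kept probe sets with 3 or more arrays at log2 5 or above (14568 of 22810, of which 64 are controls). The annotation table pairs 13513 probe sets with 1 gene, 503 with several and 8730 with none. One limma model (version 3.58.1, R 4.3.3) held all 51 arrays and estimated each group's mean (34 residual and 3.84 prior degrees of freedom). The 37 contrasts were each adjusted by Benjamini-Hochberg over all probe sets tested, and a call needed an adjusted p under 0.05 and at least 2-fold. Intervals are 95%. Figures were drawn with matplotlib 3.10.9.

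The members, lists, contrasts and alternatives were chosen with earlier results of these data known. The text names the members, EFR (its response and its untreated level), the 3 transcripts nearest to each member, and the other WRKY genes. A list of 17 genes of the MAP kinase pathway and of WRKY targets had no member named on the array table. In simulated data of 14568 probe sets, 92% of those changed by 1.5 and 100% of those changed by 3 were recovered for 2 h of elf18 in WT, 94% and 100% for the peptide difference at 2 h in WT, and 86% and 100% for the difference between peptides in the change over time. The simulation drew independent normal noise with each probe set's own spread, around its untreated WT mean in every group. A small set of probe sets was changed, only in WT at 2 h of elf18, in a single draw. Correlation between arrays, the many changes of the real data and the floor of low values were left out. These shares check the fit and do not measure the power of the study.

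Whether replicate numbers pair the arrays was checked on deviations from group means: same-numbered arrays correlated at 0.078 on average and others at -0.039. Every same-numbered pair passed 0.1 in 3 of the 37 contrasts (ein2 with Pep2, untreated ein2 against WT, and WT over time with elf18). The replicate number as a block changed no member's call there.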

Additional observations from a re-analysis of the deposited data

Results flagged for a closer look

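The results below are differences between 2 lines, or 2 peptides, in the same response, each passing the test of the difference itself. The efr response to 10 h of elf18 minus the WT response was -3.59 for WRKY22, -4.07 for WRKY53 and -2.74 for WRKY6. At 2 h of Pep2 the pepr1 pepr2 response minus the WT response was -1.96 for WRKY22, -5.32 for WRKY53 and -3.48 for WRKY6. The change between 2 h and 10 h of Pep2 in pepr1 pepr2 minus that in WT was 4.08 for WRKY53 and 2.55 for WRKY6.

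At 10 h of Pep2 the bak1 response minus the WT response was 1.68 for WRKY53 and 1.93 for WRKY6, and the change between 2 h and 10 h in bak1 minus that in WT was 1.67 for WRKY6. In WT the change between 2 h and 10 h with elf18 minus that with Pep2 was 4.46 for WRKY53 and 3.49 for WRKY6. Each difference in the change between 2 h and 10 h is the difference at 10 h minus that at 2 h. It reuses the same arrays and is not separate from the results at each time. Single arrays were not tested as outlying within their groups of 3.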

How the results depend on the processing

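Of 1285 values recomputed with another processing choice, 1255 kept their direction and their side of the threshold, as did 1047 of 1110 with 1 array left out. The cause of the changes below was not tested. Quantile normalisation took WRKY22 past the threshold for the bak1 response minus the WT response at 10 h of Pep2 (1.25) and for the change over time with Pep2 in pepr1 pepr2 minus WT (1.21), and lost the call of AT3G28850 for the peptide difference at 10 h (0.99). Both WRKY22 values also passed with only the groups compared in the fit (1.18 and 1.20). That fit lost the WRKY53 call at 10 h of Pep2 in pepr1 pepr2 (1.12, adjusted p = 0.069). Array weights lost it as well (0.93), took past the threshold WRKY22 in bak1 (1.24) and WRKY6 in pepr1 pepr2 minus WT at 10 h (-1.11), and turned the sign of uncalled values: WRKY53 in ein2 minus WT at 10 h of elf18 (-0.07) and 2 h of Pep2 (-0.02), the WRKY22 peptide difference in ein2 minus WT (-0.28) and the WRKY6 change over time in ein2 minus WT (0.12). With no fold minimum WRKY6 also passed in efr (0.80), in pepr1 pepr2 at 2 h (0.72), untreated in ein2 (0.70), in ein2 minus WT with Pep2 (-0.79), in pepr1 pepr2 minus WT at 10 h (-0.93) and between 2 h and 10 h in bak1 (-0.48), and WRKY22 between 2 h and 10 h of elf18 in WT (-0.85). The untreated EFR difference of -1.01 kept its value and lost its call with no filter (adjusted p = 0.066), an intensity trend (0.054) or only the groups compared (0.52). All groups hold the same replicate numbers, so the replicate block could not move a difference, only its SE and adjusted p. The largest shift of 0.00 was thus fixed by the design and is no check of the values. The calls could have changed with the SE, and none of the members' calls did.

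With single arrays left out, untreated differences from WT ran from -1.12 to 0.23 for WRKY53 in ein2, -0.53 to 0.03 for WRKY22 in efr, -0.18 to 0.87 for WRKY22 in pepr1 pepr2 and -0.16 to 0.05 for WRKY6 in bak1. Responses ran from 0.58 to 1.03 for WRKY22 and -0.31 to 0.58 for WRKY53 in efr, and in pepr1 pepr2 from 0.19 to 1.24 for WRKY22 and -0.61 to 0.13 for WRKY53 at 2 h, and -0.09 to 0.96 for WRKY22 and 0.70 to 1.44 for WRKY53 at 10 h. The ein2 response minus the WT response of WRKY53 ran from -0.10 to 1.25 (2 h elf18), -0.17 to 1.18 (10 h elf18) and -0.29 to 1.06 (2 h Pep2). In pepr1 pepr2 minus WT at 10 h the ranges were -1.25 to -0.19 for WRKY22, -1.67 to -0.92 for WRKY53 and -1.05 to -0.72 for WRKY6, and in bak1 minus WT at 10 h 0.89 to 1.46 for WRKY22 and 1.36 to 2.00 for WRKY53. The WRKY22 peptide difference in ein2 minus WT ran from -0.18 to 0.40. Changes between 2 h and 10 h ran from -1.04 to -0.68 for WRKY22 with elf18 in WT and 1.14 to 1.58 for WRKY53 in pepr1 pepr2. The difference in that change ran from 0.90 to 1.48 for WRKY22 in pepr1 pepr2 minus WT, and in ein2 minus WT from -0.16 to 0.20 for WRKY22, -0.29 to 0.06 for WRKY53 and -0.18 to 0.15 for WRKY6. WRKY20 in WT ran from -0.00 to 0.19 at 2 h of elf18 and -0.10 to 0.05 at 2 h of Pep2.

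Over all transcripts, dropping the fold minimum raised the counts by 1.64 to 6.7 times in the contrasts it moved (3446 against 514 at 2 h of Pep2 in pepr1 pepr2). Untreated efr against WT had 12 calls, against 6 with the filter at log2 7, 25 with the replicate block, 48 with array weights and 0 with only the groups compared. Untreated bak1 had 10, against 29 with weights and 0 with only the groups compared, and untreated pepr1 pepr2 had 12, against 2. The bak1 difference at 2 h had 94, against 185 with weights. The ein2 peptide difference had 88, against 52, 302 and 45 with the higher filter, weights and only the groups compared. The ein2 change over time had 257, against 460 with weights and 148 with only the groups compared, and the ein2 difference at 2 h of elf18 had 200, against 127. Of the 9 nearest transcripts 9 stayed among the nearest 3 with quantile normalisation, 7 with median centring and 5 over 51 arrays in place of 17 means.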
